A study of Mus musculus with 24 samples.

Results

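The replication-dependent histone genes of the mouse lie packed together in the Hist1 cluster on chromosome 13 and the Hist2 cluster on chromosome 3. All peaks of the 24 deposited lists that overlapped 1 of 3 windows of the mm9 build by at least 1 bp were taken: chromosome 13 from 21.7 to 22.2 Mb and from 23.5 to 23.9 Mb for Hist1, and chromosome 3 from 95.99 to 96.11 Mb for Hist2. This gave 1192 of 756484 peaks. In these windows total RNA polymerase II (Pol II) was called at the highest scores of the lists over runs of short H3K4me3 regions, while the elongating form of Pol II and the mark of transcribed gene bodies were rarely called beside it.

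Replication-dependent histone genes encode the core histones H2A, H2B, H3 and H4 and the linker histone H1, which package newly made DNA. They are short, have no introns and are transcribed mostly in S phase from a nuclear compartment called the histone locus body. Their messages end in a stem-loop bound by SLBP and cut by the U7 snRNP, in place of a poly(A) tail, and transcription stops soon after the cut. WDR82, the protein lowered in the study, is a subunit of the SET1 complexes that methylate lysine 4 of histone H3 and also of a phosphatase complex that acts on Pol II at sites of termination.

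The peaks come from ChIP-seq, the sequencing of DNA pulled down with an antibody, in mouse bone marrow-derived macrophages. These were grown in culture from FVB/Hsd marrow and used at differentiation day 7. All cells were infected with a retrovirus and selected with puromycin: the shWdr82 cells carried 1 short hairpin against Wdr82, and the controls an empty vector (for H3K4me3 and H3K27ac) or a scrambled hairpin (for H3K4me1, H3K36me3, total Pol II and the form of Pol II with phosphate on serine 2 of its tail, Ser2P). Both kinds of cell were sampled without stimulus and after lipopolysaccharide (LPS), a bacterial product that activates macrophages, at 10 ng/ml, for 4 h with H3K4me3 and H3K27ac and for 45 min with the other antibodies, as the sample titles give the times; the protocol text names 4 h alone. Every group held 1 library, so there was no replicate error, no test was run, and differences below compare libraries, not conditions. The lists held between 14420 peaks (Ser2P, scrambled LPS) and 65149 peaks (H3K4me1, scrambled LPS), and the read depth behind them is unknown. A knockdown check was not possible from peaks, and no marker gene of macrophages or other marrow cells could be placed on mm9, so the labelled cell type was not checked.

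No gene annotation of mm9 was used, so the windows are described by position, and RefSeq (build GRCm38.p6) served for names, neighbours and promoter sequences only. It lists 65 histone genes in these clusters: 24 in the first and 31 in the second group on chromosome 13, and 10 on chromosome 3. By type they are 6 H1, 18 H2A, 17 H2B, 12 H3 and 12 H4 genes. The first group is not made of histone genes alone, since 31 tRNA genes, transcribed by another polymerase, and the genes Zfp184, Pom121l2 and Prss16 stand between its members. The second group has Hfe, Trim38 and 4 Slc17a genes among its members. Of the 59 histone genes with a promoter entry, 10 H2A genes were paired head to head with an H2B gene, with 163 to 280 bp (median 203.5) between the 2 starts.

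The 150 bases before the start of 1 gene of each type are shown because they show how compact these promoters are and what they share; their place relative to the peaks was not tested, since the builds differ. The gene is the lowest-numbered of its type with an entry, leaving out the testis genes H2ac1 and H2bc1, and capitals mark motifs found by letters on either strand. The first is TATAAA, the spelling of the TATA box, marked at any distance from the start. Its first base lies 33, 41, 10 and 29 bases before the start in H1f1, H2ac4, H2bc3 and H3c2. Whether these stretches act as TATA boxes was not tested. The second is the binding motif of the factor NF-Y, spelled CCAAT. The last is the octamer of the factor Oct-1, spelled ATTTGCAT. The stretches come from GRCm38.p6: H1f1 from chr13:23763518-23763667 (plus strand), H2ac4 from chr13:23750938-23751087 (plus), H2bc3 from chr13:23746584-23746733 (plus), H3c2 from chr13:23752195-23752344 (plus) and H4c1 from chr13:23761250-23761399 (minus).
H1f1: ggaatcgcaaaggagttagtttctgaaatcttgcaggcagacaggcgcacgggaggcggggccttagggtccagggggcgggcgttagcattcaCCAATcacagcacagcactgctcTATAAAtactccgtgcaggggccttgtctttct
H2ac4: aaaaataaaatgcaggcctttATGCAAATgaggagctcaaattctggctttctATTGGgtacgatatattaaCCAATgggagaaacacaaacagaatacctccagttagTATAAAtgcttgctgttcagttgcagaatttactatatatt
H2bc3: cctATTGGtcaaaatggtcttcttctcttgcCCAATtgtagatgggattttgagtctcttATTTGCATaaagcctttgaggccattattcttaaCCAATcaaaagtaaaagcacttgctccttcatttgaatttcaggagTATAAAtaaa
H3c2: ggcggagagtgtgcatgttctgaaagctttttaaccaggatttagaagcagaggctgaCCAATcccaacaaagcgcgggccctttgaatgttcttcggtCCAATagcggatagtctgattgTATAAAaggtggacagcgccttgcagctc
H4c1: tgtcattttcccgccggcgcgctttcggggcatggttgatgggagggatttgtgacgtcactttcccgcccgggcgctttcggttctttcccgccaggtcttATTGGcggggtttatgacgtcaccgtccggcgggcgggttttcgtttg

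CCAAT, in either orientation, was in the 150 bases of 49 of 59 histone promoters (83.1%) and in 25.1% of 26966 other RefSeq promoters. It was in all 6 H1, all 17 H2A and all 15 H2B entries, in 8 of 10 H3 entries and in 3 of 11 H4 entries. TATAAA, at any place in the 150 bases and in either orientation, was in 39.0% of histone promoters and 8.01% of the others. The octamer was in 4 of 17 H2A and 5 of 15 H2B promoters, in no H1, H3 or H4 promoter, and in 0.99% of the others. These counts are not of separate promoters. The 10 head-to-head pairs have at most 280 bp between starts, so their 2 stretches of 150 bases overlap. A motif in the overlap counts for both the H2A and the H2B gene. Some copies are near-identical: over the 300 bases of each entry, H2bc23 and H4bc24 (also listed as Hist1h2br, an H2B gene) shared all 300 bases, H4c17 and H4c18 a run of 285, H3c15 and H3c14 a run of 231, H2ac19 and H2ac18 a run of 219, and H2ac23 and H2ac24 a run of 200. Such copies also repeat the same motifs in the counts above. The sources used here do not say how reads that fit several such copies were placed, so peaks at these copies are uncertain.

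Overlapping H3K4me3 peaks of the 4 H3K4me3 libraries were merged, and each merged region, the mark of active promoters, is called a unit. The windows held 100 units, 38 in the first Hist1 window, 47 in the second and 15 in the Hist2 window, of 21626 such regions in the genome. Their median width was 1348.5 bp (range 212 to 3807) beside 1510 bp in the genome, so the units were only slightly shorter than H3K4me3 regions at large. They lay much closer together: the median gap between neighbours was 3011 bp in the windows and 33758.5 bp in the genome, and 29 of 97 gaps were under 1000 bp (29.9%) beside 6.41% of genome gaps. A peak in all 4 H3K4me3 libraries was called at 75 units, which is 75% beside 71.4% of H3K4me3 regions in the genome. By library 91, 82, 84 and 87 units had it in empty vector untreated, empty vector LPS, shWdr82 untreated and shWdr82 LPS (genome 83.8, 79.4, 85.4 and 84.6%). H3K27ac, a mark of active promoters and enhancers, was on 62, 63, 69 and 60 units in that order (genome 63.7, 59.0, 64.3 and 58.0%). H3K4me1, a mark common at enhancers and promoter flanks, was on 60, 63, 54 and 55 units, with scrambled as the control (genome 68.3, 71.3, 61.1 and 64.3%). H3K4me1 was on a smaller share of units than of genome regions in all 4 libraries, and the other marks lay on either side of the genome share. The map of units by library shows these calls with those of the other antibodies.

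**Figure D1:**
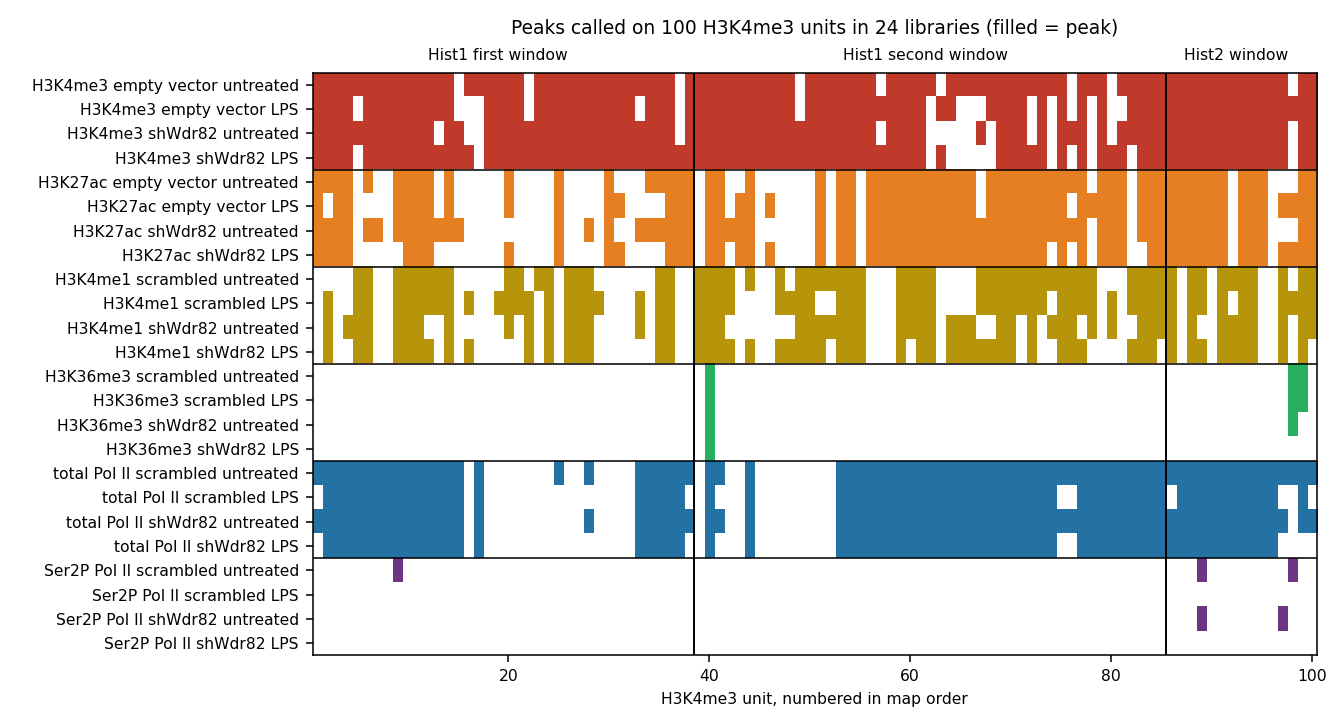
Each column is 1 of the 100 H3K4me3 units in map order and each row 1 of the 24 libraries; a filled cell is a called peak of at least 1 bp overlap. Total Pol II (blue) fills 63 columns in all 4 rows, while H3K36me3 (green) and Ser2P (purple) are nearly empty.

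Total Pol II was called at most units. In scrambled untreated cells 75 of 100 units had a total Pol II peak, where 58.7% of H3K4me3 regions of the genome had one. With LPS for 45 min 64 units had one (genome 45.2%). In shWdr82 cells the counts were 73 untreated (genome 56.2%) and 64 with LPS (genome 46.5%). The 4 libraries thus called 63 units in common, another 12 in 1 to 3 libraries, and 25 in none, beside 38.3, 26.0 and 35.7% of H3K4me3 regions of the genome. These peaks reached the highest scores of the lists. The score is the authors' value from the peak caller, it starts at 50 and piles up at a ceiling near 3100, and it is used here to rank peaks within a list. Of the total Pol II peaks in the windows, 31 of 60 scored at least 3000 in scrambled untreated cells (51.7%), where 4.50% of all peaks of that list did. The shares were 70.7% beside 5.03% in scrambled LPS, 50.0% beside 3.54% in shWdr82 untreated and 42.9% beside 4.97% in shWdr82 LPS. H3K4me3 peaks did not share this: 16 of 100 scored at least 3000 in empty vector untreated cells, where 47.7% of that list did.

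Merging the total Pol II peaks of the 4 libraries gave 56 regions in the windows, of 37496 in the genome. In the genome 384 regions scored at least 3000 in all 4 libraries, and 18 of these lay in the windows, 4 in the first Hist1 window, 10 in the second and 4 in the Hist2 window. Their median width was 6092 bp (range 3496 to 12777) beside 9449.5 bp for the 384. The widest in each window was chr13:22125225-22137473, chr13:23829582-23841012 and chr3:96020436-96033212. More than 1 unit lay under 13 of the 18 (72.2%), where 31.25% of the 384 covered more than 1 H3K4me3 region. The densest were chr13:21806185-21815833 and chr13:23660822-23670269, each with 6 units. H3K4me3 in all 4 libraries was called in 17 of the 18, and H3K27ac in all 4 likewise in 17, beside 88.3% and 91.7% of the 384.

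Ser2P, which marks Pol II in productive elongation, and H3K36me3, which is laid down over transcribed gene bodies, were rarely called in these regions. None of the 18 had an H3K36me3 peak in any library, where 71.9% of the 384 had one. Only chr3:96044039-96049407 had a Ser2P peak, in shWdr82 LPS alone, where 71.6% of the 384 had Ser2P in some library. So 17 of 18 had neither (94.4%, exact binomial 95% interval 72.7 to 99.9%, counting error only), beside 20.3% of the 384. The 18 regions are neighbours in 3 loci and are not independent of each other. Without a score limit 47 of all 56 regions had neither (83.9%, genome 28.2%), and of the 33 called in all 4 libraries 29 had neither (87.9%, genome 33.5%). At each of the 5 score limits tried the share in the windows was above that in the genome, from 86.7% of 30 regions beside 31.9% of 5439 at a score of 300 to 95% of 20 beside 23.8% of 778 at 2000. With Ser2P and H3K36me3 peaks counted up to 5000 bp away, 14 of 18 still had neither (77.8%), beside 9.64% in the genome. The median distance from the 18 regions to the nearest H3K36me3 peak was 112.622 kb and to the nearest Ser2P peak 127.261 kb, where both medians were 0 for the 384. The distances ranged widely, from 4.515 to 271.543 kb for H3K36me3 and from 0 to 276.297 kb for Ser2P. The 4 regions of the Hist2 window all lay within 12309 bp of a Ser2P peak and within 36353 bp of an H3K36me3 peak, and 2 of the first Hist1 window lay 1411 and 6851 bp from Ser2P.

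**Figure D2:**
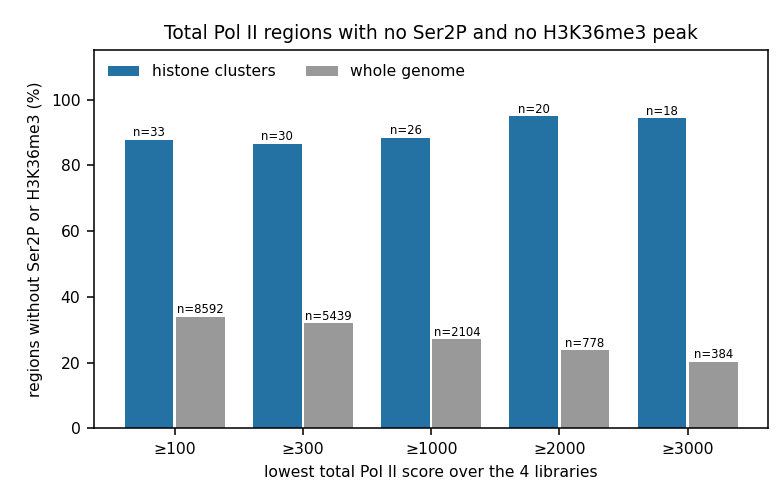
Bars give the percentage of merged total Pol II regions that overlap no Ser2P and no H3K36me3 peak of any library, for regions whose lowest score over the 4 libraries is at least the value on the x axis; n is the number of regions. The histone clusters (blue) stand at 86.7 to 95% and the whole genome (grey) at 20.3 to 34.0%.

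Units without Pol II were a smaller share than in the genome and were not spread evenly. Of the 25, 14 lay in the first Hist1 window, 11 in the second and none in the Hist2 window. A stretch of 174.4 kb, chr13:21947147-22121518, held 15 units of which 13 had no total Pol II in any library, although 14 had H3K4me3 in all 4. A further stretch of 91.8 kb, chr13:23527261-23619045, held 11 units, 10 of them without total Pol II and 10 with H3K4me3 in all 4. Both stretches were picked after their values were seen. No gene was placed on mm9, so whether their units are histone promoters was not tested. The first group of histone genes also holds 31 tRNA genes and the genes Zfp184, Pom121l2 and Prss16. H3K27ac was in no library at 10 of the 15 and 6 of the 11 units. That is no feature of the stretches alone: of all 25 units without total Pol II 18 had no H3K27ac (72.0%), and so did 72.1% of 7719 such regions in the genome. Of the 63 units with total Pol II in all 4 libraries 7 had no H3K27ac (11.1%, genome 2.9%). The unit at chr13:22036104-22037868 is 1 of those without total Pol II. Its H3K4me3 score was 3100 in all 4 libraries, and no H3K27ac or Pol II peak was called. Its H3K4me1 scores were 82.6, 200.2, 111 and 199 in scrambled untreated, scrambled LPS, shWdr82 untreated and shWdr82 LPS. Such a high H3K4me3 score was rare in this class, in the windows as in the genome. Of 23 units with a peak in empty vector untreated 2 scored at least 3000, beside 343 of 5087 such regions of the genome.

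Among the units, which may mark genes other than histone genes, H3K4me3 scores did not rank with Pol II as they did in the genome. In empty vector untreated cells the units with total Pol II in all 4 libraries had a median H3K4me3 score of 486 (58 units with a peak), and those with none a median of 891 (23 units), although 8 of the former and 2 of the latter scored at least 3000. Over the genome the order was the reverse, with medians of 3100 and 241. There 6521 of 8088 and 343 of 5087 scored at least 3000. The 12 units with total Pol II in 1 to 3 libraries had the highest median, 3100 (10 units with a peak, genome 1936.51). In the first Hist1 window the medians with total Pol II in all 4 and in none were 298 and 891, and in the second 499 and 629. The Hist2 window had 1753 with it in all 4 and no unit with none. The 63 units with total Pol II in all 4 libraries had a median width of 1072 bp, beside 1457 bp for the 25 without. The genome had 2201 and 843 bp. The 12 units with it in 1 to 3 libraries were the widest, with 1984 bp (genome 1497.5 bp). The widest H3K4me3 units of the windows show both kinds. In the first Hist1 window chr13:22086049-22089642, 22111590-22114942 and 22009049-22011792 had no total Pol II, while 22131759-22134519 and 21870361-21873091 had it in all 4 libraries. In the second, chr13:23621701-23624835, 23712092-23715214 and 23830049-23832797 had ceiling scores of total Pol II in all 4 libraries. There chr13:23521748-23525554, the widest unit of all, had 316 and 149.5 in the untreated scrambled and shWdr82 libraries and none with LPS, and 23608589-23611579 had none.

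Total Pol II ran past the short units on both sides. For each unit under a peak, the bp from its edges to the ends of that peak were summed. The median was 3131 bp in scrambled untreated cells (75 units, range 0 to 11702), where all H3K4me3 regions of the genome under a peak had 676.5 bp. It was 2496 bp with LPS (genome 555), 3938 bp in shWdr82 untreated (genome 680.5) and 3426.5 bp in shWdr82 LPS (genome 355). The order of the vectors untreated is not stable: with Pol II peaks joined across 1000 bp the medians were 6046 bp in scrambled and 5799 bp in shWdr82 cells. The median was 978 bp toward lower and 1204 bp toward higher coordinates in scrambled untreated cells. It was 826 and 1120 bp in scrambled LPS, 1729 and 1636 bp in shWdr82 untreated, and 1165 and 1397.5 bp in shWdr82 LPS. No gene was placed on mm9, so the strand of a unit is not known. These sides are therefore not upstream and downstream, and run-on in the direction of transcription was not tested. Much of this reach is other units under the same peak: 16 of the 47 peaks on units covered 2 or more (34.0%), beside 6.77% in the genome. Measured past the outermost unit, the medians were 1346, 1032.5, 1414 and 1123.5 bp in the order scrambled untreated, scrambled LPS, shWdr82 untreated and shWdr82 LPS, beside 497, 329, 500 and 188 bp in the genome. Reach of over 5000 bp past the outermost unit on a side was seen for 1 peak in each untreated library (2.13% and 2.44%) and for none with LPS, where 9.18, 11.4, 8.98 and 11.8% of genome peaks did so in that order. Peaks over 2 or more units were thus common in the clusters, where units also lay closer together (median gap 3011 bp beside 33758.5 bp). A peak running far past a unit more often meets another unit there. Reach past the outermost unit therefore cannot be compared directly with that of the genome.

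**Figure D3:**
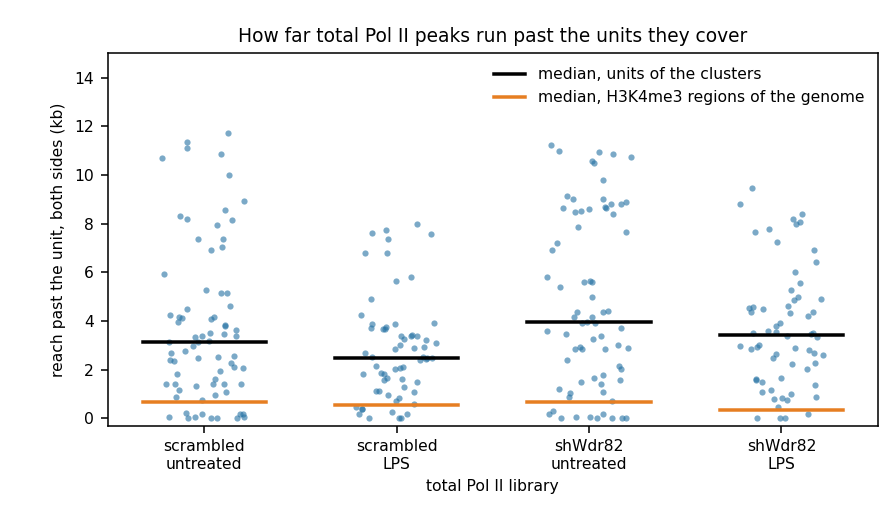
Each point is 1 unit with a total Pol II peak in the library on the x axis, and the y axis gives the summed kb by which that peak runs past both edges of the unit; sideways scatter has no meaning. Black lines (2496 to 3938 bp) are medians over the units and orange lines (355 to 680.5 bp) over all H3K4me3 regions of the genome.

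In scrambled untreated cells the longest reaches came from blocks of units. A small unit under a wide peak gets a long reach by the way reach is measured. The unit with the longest reach in each window had no H3K4me3 peak in either untreated library. At chr13:22134679-22135016 it was called in shWdr82 LPS alone (65.9). At 23662808-23663148 it was called in both LPS libraries alone (65.4 and 77.6), and at chr3:96093513-96094926 in empty vector LPS alone (187). In the first Hist1 window the unit at chr13:22134679-22135016 had 9454 bp of Pol II on its lower side and 1881 bp on its higher side. The units 22127305-22127868 and 22126339-22127150 lay under the same peak. With LPS this block was called as 2 peaks in both vectors, the widest 6144 bp in scrambled and 7266 bp in shWdr82 cells, where 1 peak had spanned 11673 and 11547 bp untreated. In the second window the longest reaches in scrambled untreated cells were at 23662808-23663148, 23665163-23665736 and 23661997-23662696, all under 1 ceiling peak of 8897 bp. In the Hist2 window they were at 96093513-96094926 and 96095028-96098160, described with LPS below, and at 96048116-96049298. The order was another in shWdr82 untreated cells. In the second window 23836261-23837198 and 23837213-23838837 then had 10493 and 9806 bp, above 9018 bp at 23662808-23663148. In the Hist2 window 96022727-96024567 and 96024635-96026550 had 10936 and 10861 bp, beside 4165 bp at 96048116-96049298, 297 bp at 96095028-96098160 and no peak at 96093513-96094926.

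A region is called lost where only the control library has a peak and gained where only the shWdr82 library has one, and likewise for LPS against untreated. Untreated, 7 of 55 total Pol II regions were lost in shWdr82 (12.7%), beside a genome share of 22.0%, and none was gained (genome 13.4%). With LPS 5 of 39 were gained (12.8%, genome 21.5%) and 1 was lost (genome 17.3%). No region was lost or gained in both treatments (genome 1.29 and 0.989%). Of 48 regions called in both untreated libraries none had at least 2 times more or less length under peaks in shWdr82 (genome 4.28 and 3.17%), and none of 33 with LPS (genome 5.67 and 5.88%). No unit's total Pol II or Ser2P call differed the same way in both treatments. Some neighbouring peaks of the scrambled list were a single peak in shWdr82. Untreated, 5 of 48 regions called in both had fewer peaks in shWdr82 (genome 11.0%) and 1 had more (genome 6.88%). With LPS 4 of 33 had fewer (genome 11.6%) and 1 had more (genome 8.98%). The shares with fewer peaks are near the background. At chr13:21806185-21815833 the widest peak was 5147, 4783, 9549 and 5429 bp in scrambled untreated, scrambled LPS, shWdr82 untreated and shWdr82 LPS. At chr13:23829582-23841012 it was 6105, 4849, 11431 and 10419 bp, and at chr3:96020436-96033212 it was 5691, 4008, 12777 and 4636 bp. The shWdr82 untreated peak was the widest at all 3 sites, and with LPS it was wider than in scrambled by over 2 times only at the second. The length under peaks there differed less: untreated it was 8931, 11199 and 9752 bp in scrambled and 9549, 11431 and 12777 bp in shWdr82. Not all sites went this way. Untreated, the widest peak was 11673 and 11547 bp at chr13:22125225-22137473 and 13116 and 3631 bp at chr3:96085426-96098541, in scrambled and shWdr82.

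The 2 strong H3K36me3 regions lay near the edges of their windows. A peak touched 3 units in each scrambled library (genome 19.3% untreated and 16.8% with LPS), 2 in shWdr82 untreated (genome 16.0%) and 1 in shWdr82 LPS (genome 15.1%). One region, chr13:23509401-23514965, lay 9.401 kb from the start of the second window, with scores of 2089, 1476, 1418 and 2238 in the 4 libraries. It ended inside the unit 23514485-23517113, whose total Pol II scores were 531, 186, 457 and 176. The other, chr3:96086443-96096833, ended 13.167 kb before the end of the Hist2 window. It covered 10347, 10171, 7293 and 5145 bp in scrambled untreated, scrambled LPS, shWdr82 untreated and shWdr82 LPS. The shorter H3K36me3 regions at chr13:21917264-21919266, 22049920-22052301 and 23507847-23509242 and chr3:96078902-96081186 scored at most 139. Only 1 to 3 libraries called each of them.

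Ser2P peaks in the windows numbered 8 in scrambled untreated, 1 in scrambled LPS, 6 in shWdr82 untreated and 3 in shWdr82 LPS, and 13 of these 18 touched no unit. Most Ser2P peaks of the genome touched no H3K4me3 region either. Those that did were 2251 of 15670 in scrambled untreated and 2088 of 14420 in scrambled LPS. In shWdr82 they were 1992 of 16744 untreated and 2160 of 14870 with LPS. On units, 3 had Ser2P in scrambled untreated (genome 11.1%), 2 in shWdr82 untreated (genome 9.66%), and none with LPS in either vector (genome 10.3 and 10.9%). The widest in the Hist2 window was chr3:96081294-96093676, called over 9281 bp at a score of 3100 in scrambled untreated and 10187 bp at 296 in shWdr82 untreated, and not with LPS. Next came chr3:96034226-96042571, called over 4676 bp in scrambled untreated, 8099 bp in shWdr82 untreated and 4882 bp in shWdr82 LPS. In the first Hist1 window the 2 widest were chr13:21919815-21922186 and 21839987-21842232, at scores of up to 127 and 96.2. The only one in the second was chr13:23509383-23510211, in both untreated libraries at 61.7 and 62.2.

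**Figure D4:**
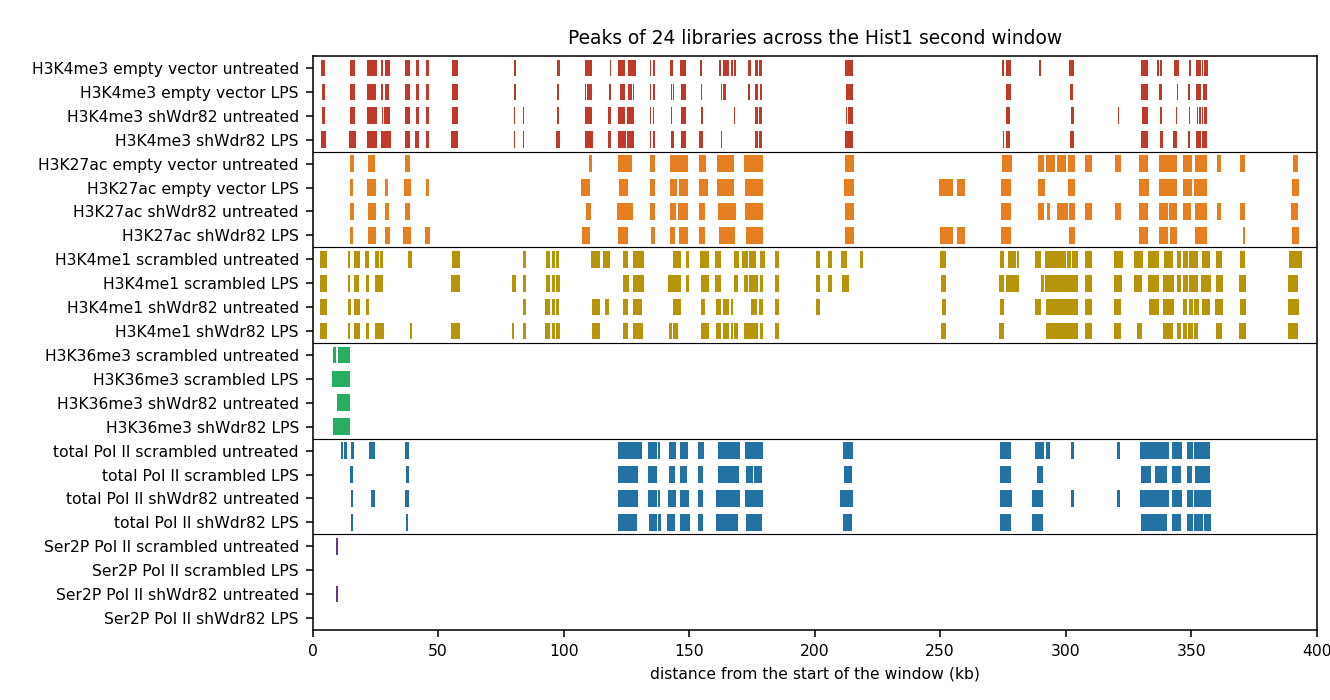
Bars are called peaks in the Hist1 second window, by distance in kb from its start, with 1 row per library and 1 colour per antibody. Total Pol II stands in blocks in the right part of the window, the 91.8 kb stretch to their left has H3K4me3 with little Pol II, and H3K36me3 stands near the start of the window.

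H3K4me3 peaks missing in shWdr82 untreated cells lay mostly in the second Hist1 window, which also held more units than either other window. Of 95 regions 11 were lost (11.6%, genome 7.8%) and 4 gained (4.21%, genome 9.51%). Of the 11, 8 lay in the second window, which held 47 of the 100 units. Total Pol II in all 4 libraries was called at 10 of them, beside 63 of the 100 units. The 11 were weak in empty vector, with scores of 54.5 to 570.1 (median 159). With LPS 4 of 91 were lost (4.4%, genome 5.66%) and 9 gained (9.89%, genome 11.4%). Untreated, lost regions outnumbered gained ones in the windows and the reverse held in the genome, while with LPS both shares were near those of the genome. Of the 11 units, 5 lay in one place.

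That place was the block of Pol II at chr13:23660822-23670269 and its neighbour. The unit 23663567-23665078 had H3K4me3 scores of 570.1 and 97.5 in empty vector untreated and LPS, and no peak in either shWdr82 library. The unit 23673268-23674487 had 484 and 91.7 in empty vector and none in shWdr82. These 2 are the only units of the windows called in both empty vector libraries and in neither of shWdr82 (2%, genome 1.41%). Around them 23661997-23662696, 23665163-23665736 and 23666622-23667377 had scores of 65.8, 159.8 and 77.1 in empty vector untreated alone. Elsewhere 23789333-23790288 (399), 23836261-23837198 (73.4) and 21903999-21904368 (56.0) had the mark in empty vector untreated alone, and chr3:96093513-96094926 in empty vector LPS alone (187). All these units kept total Pol II in all 4 libraries except the last, which had it in scrambled untreated only. At the 5 units of the block and its neighbour, H3K27ac was called in all 4 libraries, and total Pol II scored 3100 in all 4.

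H3K4me1 calls at this block and its neighbour differed both ways. The region chr13:23663597-23665886 and the region 23666600-23667613 had H3K4me1 in both shWdr82 libraries, with scores of 70.4 and 60.65 at the first and 54.7 and 89.15 at the second, untreated and LPS, and in neither scrambled library. They are the only 2 of 103 H3K4me1 regions gained in both treatments (1.94%), a share below that of the genome (3.29%), and their scores are near the floor of 50. Other units there had H3K4me1 in both scrambled libraries, and 2 of these lacked it in shWdr82 untreated. The unit 23661997-23662696 had H3K4me1 scores of 253, 171, 78.1 and 151 in scrambled untreated, scrambled LPS, shWdr82 untreated and shWdr82 LPS. The unit 23667905-23668869 had 136, 159.8, none and 69.6, and 23673268-23674487 had 288, 353, none and 206. Scores of different lists are given side by side only, and the controls of the 2 antibodies were different vectors.

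The reverse H3K4me3 pattern, a peak in both shWdr82 libraries and in neither empty vector library, was seen at 3 units (3%, genome 2.68%). These were chr13:21878975-21879364 with scores of 109 and 50.2 untreated and LPS, 22027469-22028211 with 125 and 149.7, and 23583800-23584345 with 80.1 and 64.5. The units 22134679-22135016 (65.9) and 23842924-23843135 (54.7) were called in shWdr82 LPS alone, and 23820825-23821289 (81.8) in shWdr82 untreated alone. Total Pol II was in all 4 libraries at the first of these 6 units and at 22134679-22135016 and 23842924-23843135.

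The length of H3K4me3 on the units was lower in shWdr82 untreated than in empty vector untreated where Pol II was present. On the 63 units with total Pol II in all 4 libraries it summed to 73.959 kb in empty vector and 52.286 kb in shWdr82, a ratio of 0.707, where the same class of the genome gave 0.813. It was narrower at 53 of the 63 (genome 91.8%). On the 25 units without Pol II it was 32.8 and 32.22 kb, a ratio of 0.982 (genome 0.987), and narrower at 18 (genome 45.8%). On the 12 with Pol II in 1 to 3 libraries it was 20.654 and 18.199 kb, a ratio of 0.881, where the genome gave 0.781. The clusters thus lay below the genome with Pol II in all 4 libraries and above it with Pol II in 1 to 3. With LPS the ratios were 1.09 (genome 0.953) with Pol II in all 4 libraries, 0.934 (genome 0.963) with it in 1 to 3 and 1.36 (genome 1.25) without it. The mark was then wider in shWdr82 at 37 of the 63 units (genome 44.8%) and at 23 of the 25 (genome 63.8%). The genome moved the same way untreated, so the shortening is not shown to be particular to the clusters.

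H3K4me1 covered less of the windows with the Wdr82 hairpin in both treatments and in all 3 windows. It covered 237.13 kb in scrambled untreated and 182.192 kb in shWdr82 untreated, a ratio of 0.768, where the ratio over the genome was 0.95. With LPS it covered 241.189 and 190.557 kb, a ratio of 0.790 (genome 0.978). The lowest ratio was 0.691 in the first Hist1 window with LPS and the highest 0.872 in the Hist2 window untreated. Of 94 regions 21 were lost untreated (22.3%, genome 17.1%) and 8 gained (8.51%, genome 14.4%), and with LPS 19 of 94 were lost (20.2%, genome 16.6%) and 6 gained (6.38%, genome 13.5%). The 7 lost in both treatments (6.80%, genome 4.63%) were chr13:22008861-22011906, 22135348-22138099, 23648669-23649905, 23705304-23706793, 23710672-23713739, 23776372-23780448 and 23780510-23781256. On the units without total Pol II the summed H3K4me1 length was 17.464 kb in scrambled untreated and 10.413 kb in shWdr82 untreated, a ratio of 0.596 (genome 0.953), and on those with Pol II in all 4 the ratio was 0.924 (genome 0.95).

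H3K27ac differed less between the vectors. Untreated it covered 167.881 kb in empty vector and 174.571 kb in shWdr82, a ratio of 1.04 (genome 1.08), and with LPS 177.918 and 157.743 kb, a ratio of 0.887 (genome 0.902). Of 57 regions 3 were lost untreated (5.26%, genome 7.57%) and 3 gained (5.26%, genome 9.74%). With LPS 5 of 51 were lost (9.80%, genome 12.6%) and 1 was gained (1.96%, genome 7.95%). No region was lost or gained in both treatments (genome 0.457 and 0.386%). Between 4 h of LPS and untreated, 8 of 62 regions were gained in empty vector (12.9%, genome 21.6%) and 12 lost (19.4%, genome 24.9%). In shWdr82 7 of 61 were gained (11.5%, genome 18.6%) and 15 lost (24.6%, genome 27.7%). Lost H3K27ac regions outnumbered gained ones in both vectors, in the clusters as in the genome.

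**Figure D5:**
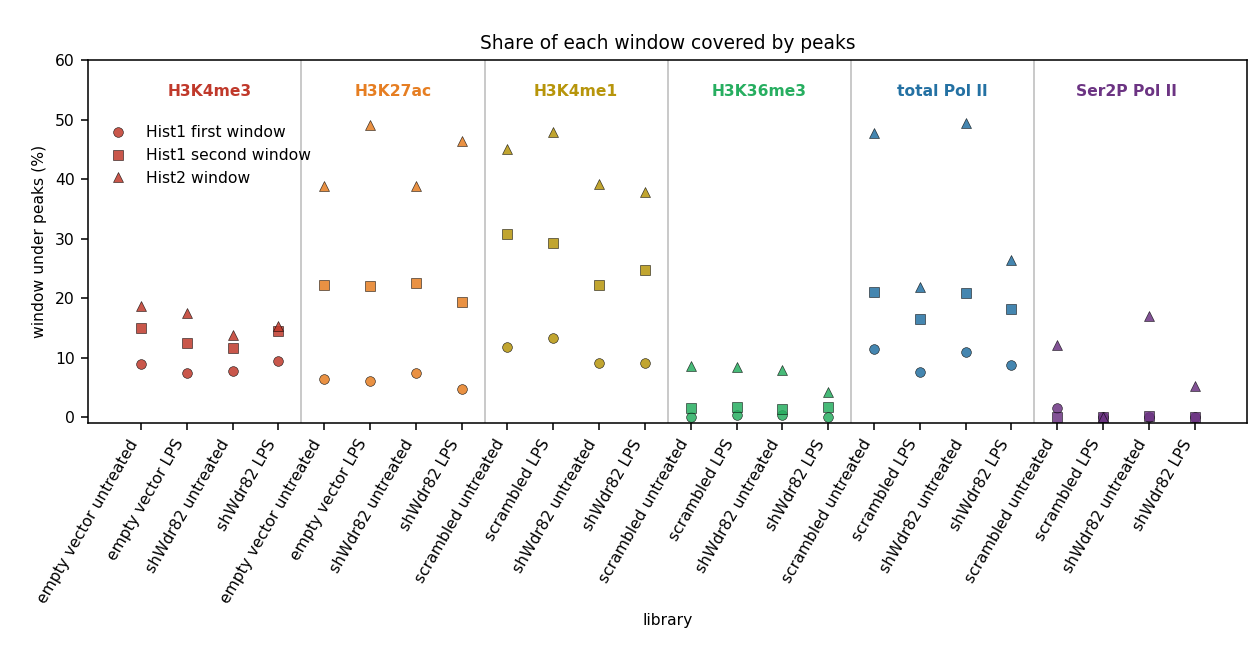
Points give the percentage of each window under peaks (circle, first Hist1 window; square, second; triangle, Hist2) in each of the 24 libraries, coloured by antibody. Total Pol II lies lower in both LPS libraries than in both untreated ones in all 3 windows, and H3K4me1 lies lower in both shWdr82 libraries than in both scrambled ones.

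Total Pol II covered less of the clusters after 45 min of LPS. In scrambled cells it covered 199.708 kb untreated and 130.913 kb with LPS, a ratio of 0.656, where the genome gave 0.797. In shWdr82 cells the values were 197.949 and 148.991 kb, a ratio of 0.753 (genome 0.889). The ratio was lowest in the Hist2 window, 0.458 in scrambled and 0.535 in shWdr82 cells. Of 55 regions 21 were lost with LPS in scrambled cells (38.2%, genome 42.4%) and none gained (genome 14.0%), and of 49 in shWdr82 cells 11 were lost (22.4%, genome 37.6%) and 1 gained (genome 20.3%).

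H3K4me3 after 4 h of LPS went in opposite directions in the vectors: 127.413 kb untreated and 108.493 kb with LPS in empty vector (ratio 0.852, genome 0.918), and 102.705 and 123.366 kb in shWdr82 (ratio 1.2, genome 1.11). In empty vector 12 of 94 regions were lost with LPS (12.8%, genome 10.6%) and 3 gained (3.19%, genome 5.66%). In shWdr82 4 of 91 were lost (4.4%, genome 7.74%) and 7 gained (7.69%, genome 6.87%).

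One site near the end of the Hist2 window had total Pol II together with Ser2P and H3K36me3. A total Pol II peak of 13116 bp at a score of 2231, chr3:96085426-96098541, was called in scrambled untreated cells. In scrambled LPS only 1117 bp of it were called, in shWdr82 untreated there were 3 peaks of at most 3631 bp, and in shWdr82 LPS there was none. It overlapped the H3K36me3 region 96086443-96096833 and the Ser2P region 96081294-96093676. Of its 2 units, 96093513-96094926 had H3K4me3 in empty vector LPS alone (187). The unit 96095028-96098160 had H3K4me3 scores of 3100, 3100, 296 and 1038 in empty vector untreated, empty vector LPS, shWdr82 untreated and shWdr82 LPS. H3K27ac there was at 3100 in all 4 libraries. The neighbouring total Pol II region chr3:96077268-96083006 also overlapped Ser2P and H3K36me3, each in shWdr82 untreated alone, with H3K36me3 at a score of 51.5. Which genes lie at these sites was not tested, since no gene was placed on mm9.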

How the data were processed

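The data are 24 peak lists, 1 per library, with positions on mm9 and a score per peak in the deposited files. The submitters' processing notes name Bowtie 0.12.7, MACS 1.4 and the build mm9. The input, the depth and the handling of reads with several matches are not stated in the sources used here. The lists hold scores from 50 to 3233.06 as the authors deposited them, and they were used only to describe, rank or filter peaks within a list.

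With Python 3.11.15, pandas 2.3.3 and NumPy 2.4.6, overlapping peaks of the 4 libraries of an antibody were merged (1 bp) over the whole genome, and calls, lengths and reach were compared between libraries. A region is lost or gained where only 1 of 2 lists has a peak. A width call is a ratio of at least 2. Peak handling was tested on simulated data. The members and lists were chosen with earlier results of these data known. Units are named by these rules: the 5 widest H3K4me3 units and the 3 longest total Pol II reaches per window in the scrambled untreated library, units lacking H3K4me3 in both libraries of a vector, units whose Pol II call differed alike in both treatments, and the 2 widest H3K36me3 and Ser2P regions per window. Alternatives were a score of at least 100, equal numbers of peaks, windows 20000 bp inside their borders, at least 0.5 of a unit covered, and joining across 1000 bp. Planned lists of histone message processing genes and cell type markers could not be placed on mm9 and were not used.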

Additional observations from a re-analysis of the deposited data

Results flagged for a closer look

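The length covered in the windows moved in opposite directions with the Wdr82 hairpin in the 2 treatments for 5 of 6 antibodies. Each comparison rests on 1 library a group, and the difference between treatments was not tested. The ratio of shWdr82 to control was 0.806 untreated and 1.14 with LPS for H3K4me3, and 1.04 untreated and 0.887 with LPS for H3K27ac. For total Pol II it was 0.991 and 1.14. For H3K36me3 it was 1.05 and 0.622, on 3 to 5 peaks a library. For Ser2P it was 0.964 and 12.3, the last on 1 peak of 0.568 kb in scrambled LPS beside 3 peaks of 7.003 kb in shWdr82 LPS. This is not particular to the windows: over the genome the ratios of the same antibodies, untreated and with LPS, were 0.833 and 1.00 for H3K4me3, 1.08 and 0.902 for H3K27ac, 0.948 and 1.06 for total Pol II, 0.982 and 1.06 for H3K36me3 and 0.934 and 1.36 for Ser2P. The order for H3K36me3 was thus the other way round in the genome. The untreated direction of total Pol II, H3K36me3 and Ser2P reversed under at least 1 of the alternative settings given with the processing, while H3K4me3 and H3K27ac kept both directions under the 3 settings tried.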

How the results depend on the processing

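No paired analysis was possible because each group holds 1 library. Ratios of covered length, shWdr82 to control, kept their direction and, unlogged, moved by less than 1.5 times in 28 of 35 alternatives. On the log2 scale, for H3K36me3 untreated the value of 0.077 became -0.28 with scores of at least 100, -0.027 with equal numbers of peaks and 0.98 with windows 20000 bp inside their borders. For total Pol II untreated, -0.013 became 0.0062, 0.034 and 0.030 under the same 3 settings, and for Ser2P untreated -0.053 became 0.087 with the inner windows. Ser2P with LPS gave no value with scores of at least 100, since no control peak was left. The median reach of total Pol II was 3131, 2496, 3938 and 3426.5 bp in scrambled untreated, scrambled LPS, shWdr82 untreated and shWdr82 LPS. With units merged across 1000 bp it was 1398, 1106, 1786.5 and 1477 bp, and past the outermost unit, a setting chosen after seeing the data, 1346, 1032.5, 1414 and 1123.5 bp: neighbouring units under a peak then count once. Joining Pol II across 1000 bp gave 6046, 3322.5, 5799 and 4747.5 bp, so that scrambled untreated then stood above shWdr82 untreated, the reverse of the reported order. Counts of units with a peak stayed within 1.5 times in 86 of 96 alternatives and peak counts in 37 of 48. The depth is unknown, so a missing peak may still hide signal below the caller's cutoff.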

Other observations

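Away from the units, the second Hist1 window held a pair of neighbouring H3K27ac regions called with 4 h of LPS in both vectors and in neither untreated library. The first, chr13:23749678-23755232, had scores of 2789 in empty vector LPS and 1893 in shWdr82 LPS and overlapped H3K4me1 peaks in all 4 H3K4me1 libraries. The second, chr13:23756887-23759961, had 690.02 and 229 and no H3K4me1 peak. Neither overlapped H3K4me3 or total Pol II in any library. The opposite pattern was also seen: of 16 H3K27ac regions off the units 3 were called in both LPS libraries alone and 4 in both untreated libraries alone. The 4 were chr13:23792107-23793736 with scores of 229 and 333 in empty vector and shWdr82, 23796568-23800830 with 157 and 176, 23807741-23810629 with 204 and 190.08, and 23860263-23861909 with 205 and 308. The pair was picked after its values were seen. How often H3K27ac regions of the genome have the same LPS call in both vectors was not counted, so these counts have no background. Within a vector such calls were common: 21.6% of H3K27ac regions of the genome were gained with LPS in empty vector and 18.6% in shWdr82. The lost shares were 24.9% in empty vector and 27.7% in shWdr82. The LPS calls off the units are thus not shown to be particular to the clusters.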
